A study of Mus musculus with 8 samples.

Results

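The Slc22 genes encode membrane carriers that move organic cations, organic anions and zwitterions such as carnitine across the cell surface. Members were the rows of the deposited gene table named Slc22a3, Slc22a5, Slc22a7, Slc22a18, Slc22a23, Slc22a27, Slc22a28 and Slc22a30. These are 8 of the 16122 genes of the table and 8 of its 21 Slc22a genes, and all 8 passed the filter on low counts. Liver RNA was sequenced in 8 libraries, of which the labels place 4 in a group called NASH, for nonalcoholic steatohepatitis, and 4 in a group called WT. All carry the wild-type genotype, so WT names the reference group and no mutant is involved. The mice were C57BL/6J males bought at 8 weeks of age and kept for 28 weeks on normal chow or on a diet high in fat, cholesterol and fructose. No label ties a group name to a diet or a library to its own animal, so p-values measure the spread between libraries, which may be technical.

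In liver, carriers of this family take up drugs, hormones, amines and metabolites from the blood and pass some of them back. Slc22a3 (OCT3) carries organic cations including monoamines, and Slc22a7 (OAT2) carries organic anions. Slc22a5 (OCTN2) is the sodium-dependent, high-affinity carnitine carrier that supplies the cofactor needed to bring long-chain fatty acids into mitochondria, and its loss in mice causes carnitine deficiency with a fatty liver. Slc22a18 is an imprinted gene of the Kcnq1 and Cdkn1c region, and Slc22a23 is an orphan member whose substrates are not settled. Slc22a27, Slc22a28 and Slc22a30 belong to a rodent cluster of organic anion transporter relatives that lie side by side on chromosome 19.

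The promoter windows of the 4 members whose libraries separated between the groups are shown because the cluster members resemble each other in their coding sequence but not all in these windows. Each runs 5′ to 3′ from 250 bases before to 50 bases after the gene start of RefSeq, build GRCm38.p6, on the minus strand. Capitals in Slc22a28 and Slc22a30 mark the bases that differ between the pair, in Slc22a27 the core of a nuclear receptor site, and in Slc22a5 the GC boxes.
Slc22a27, chr19:7965978-7966277: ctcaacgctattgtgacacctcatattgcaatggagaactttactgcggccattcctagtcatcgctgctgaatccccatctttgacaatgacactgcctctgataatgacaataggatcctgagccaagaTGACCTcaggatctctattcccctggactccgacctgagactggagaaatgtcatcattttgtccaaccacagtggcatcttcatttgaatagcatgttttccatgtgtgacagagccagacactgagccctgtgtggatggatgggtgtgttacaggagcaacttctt
Slc22a28, chr19:8131933-8132232: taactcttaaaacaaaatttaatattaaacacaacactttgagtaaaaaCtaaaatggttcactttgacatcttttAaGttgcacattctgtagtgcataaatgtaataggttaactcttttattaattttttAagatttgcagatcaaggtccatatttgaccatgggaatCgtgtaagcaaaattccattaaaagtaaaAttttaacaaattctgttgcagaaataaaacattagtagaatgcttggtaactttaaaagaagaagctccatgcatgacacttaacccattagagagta
Slc22a30, chr19:8405056-8405355: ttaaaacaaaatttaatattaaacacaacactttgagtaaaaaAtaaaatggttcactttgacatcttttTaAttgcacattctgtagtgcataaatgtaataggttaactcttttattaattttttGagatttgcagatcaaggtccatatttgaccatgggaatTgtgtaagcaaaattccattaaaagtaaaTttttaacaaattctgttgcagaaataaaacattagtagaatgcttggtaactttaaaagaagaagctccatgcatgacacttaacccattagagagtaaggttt
Slc22a5, chr11:53891654-53891953: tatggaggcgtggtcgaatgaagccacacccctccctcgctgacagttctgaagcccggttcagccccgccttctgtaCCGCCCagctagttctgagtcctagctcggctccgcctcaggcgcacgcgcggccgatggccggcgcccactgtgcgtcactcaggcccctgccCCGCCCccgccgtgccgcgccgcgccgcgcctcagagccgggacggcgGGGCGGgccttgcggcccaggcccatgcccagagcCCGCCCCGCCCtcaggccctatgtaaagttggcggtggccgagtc
The windows of Slc22a28 and Slc22a30 matched at 98.0% of 294 aligned bases without a gap. They differed by C50A, A77T, G79A, A134G, C173T and A202T, counted from 1 at the 5′ end of the Slc22a28 window with its base first. The Slc22a27 window shared 59.8% to 60.3% of aligned bases with that pair, within the 50.7% to 64.3% of other member pairs, some of which aligned over a short stretch only. Base composition set the windows apart as well. GC content was 28.3% for Slc22a28 and 27.7% for Slc22a30, 47% for Slc22a27 and 72.7% for Slc22a5, beside a median of 52.7% over 27025 promoters. Slc22a5 held 34 CpG dinucleotides, whereas Slc22a28 held 1 and Slc22a30 held 0.

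A search of both strands of the 7 member promoters found in RefSeq covered TATAAA (the core of a TATA box), GTTAAT (part of an HNF1 site), CAAAGTCCA (HNF4), TTCNNNGAA (STAT), AGGTCA (core of a nuclear receptor site), TTGCGCAA (C/EBP), CCAAT and GGGCGG (GC box). Only the last of these and AGGTCA were found. GGGCGG occurred 5 times in Slc22a5, where a pair of neighbouring matches shares a base, and 4 times in Slc22a23, and 35.9% of all promoters hold it. AGGTCA occurred once, in Slc22a27, and 16.04% of all promoters hold it. The shares of promoters holding the other motifs were 14.2% for TATAAA, 7.20% for GTTAAT, 0.477% for CAAAGTCCA, 8.47% for TTCNNNGAA, 0.185% for TTGCGCAA and 37.9% for CCAAT. A match describes letters and not a bound site.

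Library totals lay between 25760117 and 32684719 counts. NASH replicates 1 and 4 had nearly the same total, 26270597 and 26270596, though their counts of single genes differed. Levels are given as CPM, a read count divided by library size, which TMM scaling first corrects for the make-up of the library. The scaling factors ran from 0.967 to 1.40 in NASH and from 0.873 to 0.901 in WT. Without that scaling the median over all genes tested rises by 0.36 on the log2 scale, so directions of small size depend on it. The NASH libraries differed more among themselves than the WT libraries for 7 of the 8 members by coefficient of variation. Hepatocyte markers were plentiful, with Alb at 66120 ± 23004 CPM in NASH and 131302 ± 14630 CPM in WT, but Ahsg, usually abundant in liver, was counted at 4.82 and 4.43 CPM.

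One member was higher and 2 were lower in NASH (edgeR quasi-likelihood test, adjusted p under 0.05), and 5 did not pass. Over all 12351 genes tested, 12.9% were called higher and 6.00% lower. The median log2 fold change of the members was −0.72 beside 0.01 for all genes tested. A negative estimate was found for 7 of the 8, including Slc22a18 at −0.002, and for 6061 of the 12351 genes tested. NASH libraries lay wholly above WT for 1 member and wholly below for 3, where 14.6% and 12.2% of all genes tested did so and 26.8% were separated in either direction.

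**Figure D1:**
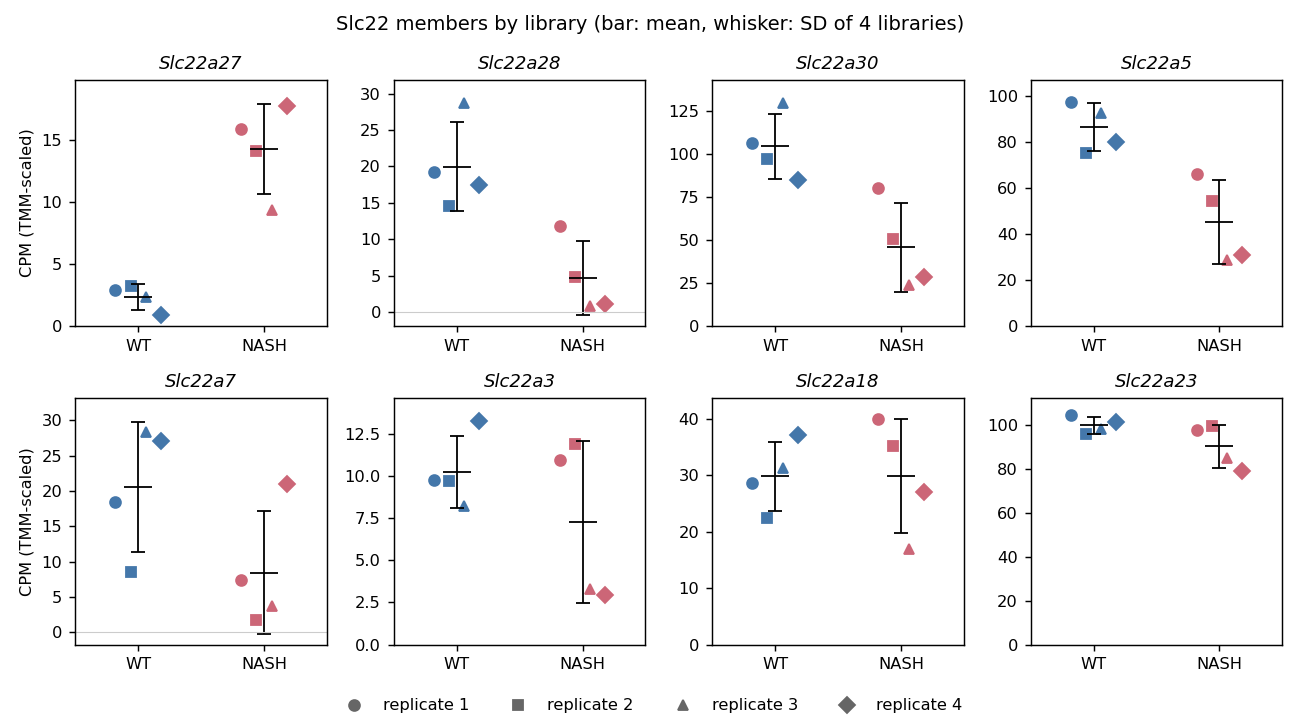
CPM (y axis, linear) of each member in the 4 WT and 4 NASH libraries, with a bar at the mean and a whisker of 1 SD. Slc22a27 lies higher in every NASH library, Slc22a28, Slc22a30 and Slc22a5 lie lower in every NASH library, and the groups overlap for the other 4.

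Slc22a27 was the member that rose. This gene (ENSMUSG00000067656) spans chr19:7864388-7966027 on the minus strand in GRCm38 by the GENCODE annotation. It stood at 15.8, 14.1, 9.31 and 17.7 CPM in NASH replicates 1 to 4 and at 2.91, 3.24, 2.33 and 0.909 CPM in WT. Every NASH library was above every WT library, and the lowest NASH value came from replicate 3. The means were 14.2 ± 3.60 against 2.35 ± 1.03 CPM (SD, n = 4), a fold of 6.07 and a log2 fold change of 2.60 ± 0.37 (SE, adjusted p = 0.00546). The call held in all 8 fits that each dropped 1 library, at log2 fold changes of 2.33 to 2.80. The reads behind it numbered 402, 381, 367 and 533 in NASH and 69, 89, 68 and 26 in WT.

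Slc22a30 fell. It lies in the same cluster, beyond Slc22a28 and Slc22a29 as counted from Slc22a27 (ENSMUSG00000052562, chr19:8335371-8405111, minus strand). Its levels were 80.0, 50.7, 23.5 and 28.6 CPM in NASH and 106, 96.7, 129 and 84.6 CPM in WT. The groups did not overlap, although NASH replicate 1 came close to the lowest WT library while replicates 3 and 4 were far below it. NASH held 43.9% of the WT mean, with a log2 fold change of −1.19 ± 0.35 (adjusted p = 0.0447). The call held without NASH replicate 1 and was lost when any of the other 7 libraries was left out, with adjusted p between 0.0687 and 0.108. Without the filter on low counts the adjusted p was 0.0628.

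Slc22a28 (ENSMUSG00000063590, chr19:8062209-8131982, minus strand), the closest relative of Slc22a30, showed the widest spread. It was at 11.9, 4.89, 0.837 and 1.16 CPM in NASH and 19.2, 14.5, 28.6 and 17.5 CPM in WT. All NASH libraries lay below all WT libraries, and the NASH values differed 14.2-fold between replicate 1 and replicate 3. The log2 fold change of −2.11 ± 0.72 missed the threshold in edgeR (adjusted p = 0.0690). DESeq2 on the same counts gave −2.11 with an adjusted p of 0.00889, limma-voom −3.01 with 0.0255, and the edgeR test without NASH replicate 1 gave −3.15 with 0.00543. The call for this gene therefore depends on the test and on that library.

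The balance within the chromosome 19 cluster can be read from the share that each of its 5 genes, Slc22a26 to Slc22a30, held of their summed CPM per kb of exon. Slc22a27 made up 17.6%, 24.6%, 32.7% and 43.1% in NASH replicates 1 to 4 and 3.07%, 3.84%, 1.97% and 1.19% in WT. Slc22a28 made up 14.2%, 9.16%, 3.16% and 3.04% in NASH and 21.9%, 18.5%, 25.9% and 24.6% in WT. Slc22a30 held the largest share of the 5 in each library, at 44.5% to 56.8% in NASH and 69.7% to 73.2% in WT. In NASH replicate 4 its lead was narrow, at 44.5% against 43.1% for Slc22a27. The ratio of Slc22a27 to Slc22a28 was 1.24, 2.69, 10.4 and 14.2 in NASH and 0.0484 to 0.208 in WT. By full exon length, Slc22a27 thus exceeded Slc22a28 per kb in each NASH library and in no WT library. Of the 75-base stretches of their transcripts, however, 44.8% in Slc22a28 and 15.6% in Slc22a27 also occur elsewhere in the family. The order in NASH replicate 1, at a ratio of 1.24, may therefore depend on how shared reads were counted. So may the order of Slc22a30 and Slc22a27 in NASH replicate 4, at a ratio of 1.03. Of the 75-base stretches of Slc22a30, 26.7% also occur elsewhere in the family. The sum of the 5 genes was 41.8, 26.6, 13.2 and 19.1 CPM per kb in NASH and 35.4 to 55.1 in WT, so NASH replicate 1 fell inside the WT range.

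**Figure D2:**
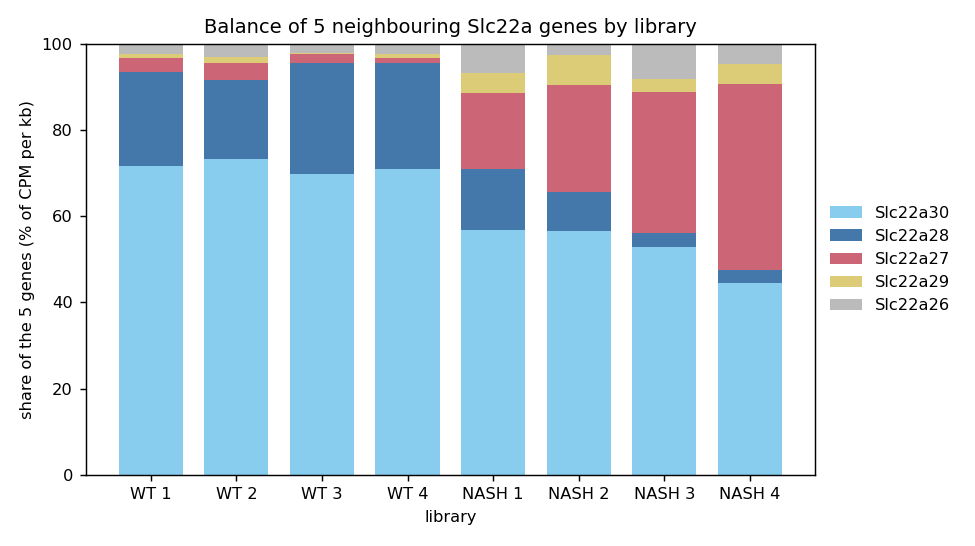
Share of CPM per kb of exon (y axis, %) held by each of 5 neighbouring Slc22a genes in each library (x axis), stacked to 100. Slc22a27 takes 17.6% to 43.1% of the bar in NASH and 1.19% to 3.84% in WT, while the shares of Slc22a28 and Slc22a30 are smaller in NASH.

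These genes share sequence, so the split of reads among them is uncertain. In GENCODE transcripts the coding sequences of Slc22a28 and Slc22a30 were 98.8% identical, those of Slc22a27 and Slc22a29 97.3%, and Slc22a27 was 91.7% identical to Slc22a28. Among the 31-base words of their transcripts, 68.2% of those of Slc22a28, 46.9% of those of Slc22a27 and 42.9% of those of Slc22a30 also occur in another gene. At 75 bases, 44.2% of the words of Slc22a28 still occur in Slc22a30 and 13.2% of those of Slc22a27 in Slc22a29. The read length is not given in the sources used here. Summing each close pair sets aside how counted reads were split within it. It does not settle the split between the pairs, which also share words, or restore any reads left uncounted. Slc22a28 and Slc22a30 together were at 91.8, 55.6, 24.4 and 29.8 CPM in NASH and at 125, 111, 158 and 102 CPM in WT. Slc22a27 and Slc22a29 together were at 20.4, 18.4, 10.2 and 19.7 CPM in NASH and at 3.96, 4.48, 2.81 and 1.71 CPM in WT. Neither sum overlapped between the groups. This followed from the single genes and adds no separate support, since Slc22a28 and Slc22a30 each lay wholly below WT. Slc22a27 alone, at 9.31 CPM or more in NASH, already exceeded the highest WT sum of its pair, 4.48 CPM. In the promoter windows of these genes the relations were different, since Slc22a29 shared 81.0% of aligned bases with Slc22a28 and 77.9% with Slc22a30 but 57.8% with Slc22a27.

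Slc22a5, the carnitine carrier (ENSMUSG00000018900, chromosome 11, minus strand), fell. Its levels were 66.1, 54.4, 28.8 and 30.8 CPM in NASH and 97.3, 75.2, 92.4 and 79.8 CPM in WT. The groups did not overlap, and NASH replicates 3 and 4 were again the lowest. The NASH mean of 45.0 ± 18.2 CPM was 52.2% of the WT mean of 86.2 ± 10.4 CPM, with a log2 fold change of −0.94 ± 0.26 (adjusted p = 0.0364). The call held without NASH replicate 1 or 2 and was lost without any of the other 6 libraries, at adjusted p of 0.0546 to 0.0982. Its neighbour Slc22a21, also a carnitine carrier in mice, has 90.2% of its coding bases in common and 17.1% of the 75-base words of Slc22a5, and stood at 1.43 ± 0.88 CPM in NASH and 1.24 ± 0.44 CPM in WT. The related carrier Slc22a4 lay lower in every NASH library without passing (−0.50 ± 0.32, adjusted p = 0.276).

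Of 9 tested genes for carnitine synthesis and the carnitine shuttle, edgeR called none in either direction, and their median log2 fold change was −0.31. DESeq2 and limma-voom with sample weights each called 2 of them lower, and the latter called 1 higher. Over all genes tested these fits called 11% and 9.89% lower and 17.5% and 15% higher, against 6.00% and 12.9% in edgeR. The inner-membrane transferase Cpt2 had the smallest adjusted p, at 119 ± 37.7 against 185 ± 4.91 CPM (−0.64 ± 0.22, adjusted p = 0.0639). Bbox1, which makes carnitine in its last step, was at 123 ± 61.3 against 206 ± 16.3 CPM (adjusted p = 0.146). Cpt1a, the outer-membrane entry enzyme, was at 688 ± 220 against 822 ± 47.9 CPM (adjusted p = 0.475). These 3 genes were chosen after their values were seen.

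Slc22a7, the organic anion carrier (ENSMUSG00000067144, chromosome 17), varied within both groups. It was at 7.33, 1.70, 3.73 and 21.0 CPM in NASH and 18.4, 8.46, 28.3 and 27.0 CPM in WT. The groups overlapped through NASH replicate 4, which exceeded 2 of the WT libraries. The log2 fold change was −1.28 ± 0.68 (adjusted p = 0.205). Without NASH replicate 4 it was −2.29 with an adjusted p of 0.0430, while leaving out any other library gave no call.

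Slc22a3, the organic cation carrier (ENSMUSG00000023828, chromosome 17), was at 10.95, 11.9, 3.32 and 2.92 CPM in NASH and 9.77, 9.70, 8.22 and 13.3 CPM in WT. NASH replicates 1 and 2 lay inside the WT range and replicates 3 and 4 below it. The log2 fold change was −0.50 ± 0.45 (adjusted p = 0.445). Exons of Slc22a3 overlap those of Plg, the plasminogen gene on the opposite strand, which was counted at 2067 ± 358 and 2998 ± 152 CPM. The strand setting of the counting is not given in the sources used here, so how many of the Slc22a3 reads came from Plg cannot be told.

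Slc22a18 and Slc22a23 share no 31-base word with another gene and did not pass. Slc22a18 (ENSMUSG00000000154, chromosome 7) had 40.0, 35.2, 16.9 and 27.0 CPM in NASH and 28.6, 22.3, 31.2 and 37.0 CPM in WT, and its log2 fold change was 0.00 ± 0.26. The NASH libraries spread on both sides of the WT range. Slc22a23 (ENSMUSG00000038267, chromosome 13) had 97.4, 99.2, 84.6 and 79.1 CPM in NASH and 104, 95.5, 98.1 and 101 CPM in WT, the tightest values of any member. Its log2 fold change was −0.15 ± 0.11 (adjusted p = 0.344), and with library totals alone it was 0.20.

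Per kb of exon, the order of the members differed between the groups. In WT, Slc22a30 at 30.9 and Slc22a5 at 28.1 CPM per kb were highest, with overlapping ranges. Slc22a18 at 17.5 and Slc22a23 at 15.6 came next, then Slc22a28 at 9.97 and Slc22a7 at 9.78, then Slc22a3 at 2.27 and last Slc22a27 at 1.09. Between neighbours in this order, the library ranges were apart from Slc22a5 to Slc22a18, from Slc22a23 to Slc22a28, from Slc22a7 to Slc22a3 and from Slc22a3 to Slc22a27. The lowest Slc22a18 library, at 13.2 CPM per kb, still lay below the highest libraries of Slc22a28 and Slc22a7, at 14.3 and 13.5. In NASH no neighbours in the order were separated, and it ran from Slc22a18 at 17.5 through Slc22a5 at 14.7, Slc22a23 at 14.1, Slc22a30 at 13.6, Slc22a27 at 6.62, Slc22a7 at 4.02 and Slc22a28 at 2.34 to Slc22a3 at 1.61. Slc22a27 was thus the least abundant member per kb in WT and the fifth in NASH. This order takes no account of sequence shared between genes.

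The table holds 13 other Slc22a genes, of which 7 passed the filter and none was called by edgeR, with 1 at an unadjusted p under 0.05. That one was Slc22a29, at 4.57, 4.26, 0.939 and 2.03 CPM in NASH and 1.05, 1.24, 0.480 and 0.805 CPM in WT. NASH replicate 3 lay inside the WT range and the other NASH libraries above it. Its log2 fold change was 1.71 ± 0.53 (adjusted p = 0.0506), and DESeq2 gave an adjusted p of 0.00888. Slc22a26, at the edge of the same cluster, was at 4.01 ± 2.83 against 3.03 ± 0.46 CPM (adjusted p = 0.517). Slc22a15 and Slc22a17 had log2 fold changes of 0.17 and 1.00 and did not pass. The 6 genes under the filter, Slc22a2, Slc22a8, Slc22a12, Slc22a13, Slc22a14 and Slc22a22, include the renal carriers OAT3 and URAT1 and held at most 9 counts in a group.

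**Figure D3:**
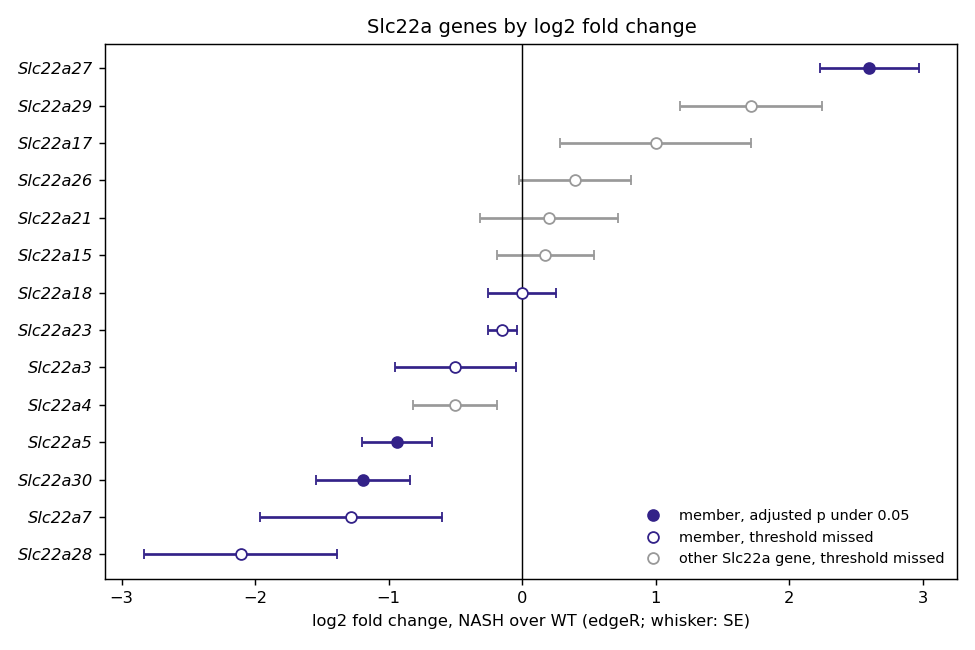
Log2 fold change of NASH over WT (x axis) with its SE for the members and 6 other Slc22a genes tested by edgeR, ordered by size. Slc22a27 at 2.60, Slc22a5 at −0.94 and Slc22a30 at −1.19 are filled, the 3 genes with an adjusted p under 0.05.

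Some carriers of other families were lower as well. In the list of SLCO and MATE carriers, which includes the bile acid carrier Slc10a1, 8 genes were tested. Of these 3 were called lower and none higher, with a median log2 fold change of −0.70. For this list and those that follow, the shares over all genes tested were 12.9% higher and 6.00% lower, with a median of 0.01. Slco1a1, a male-biased organic anion carrier, fell from 817 ± 87.5 to 66.6 ± 64.6 CPM (−3.62 ± 0.77, adjusted p = 0.0152). Slc10a1 (NTCP), the sodium-dependent bile acid carrier, fell from 771 ± 35.6 to 341 ± 155 CPM (−1.18 ± 0.33, adjusted p = 0.0376). Slco2a1, a prostaglandin carrier with both group means below 1 CPM, fell by 2.27 on the log2 scale (adjusted p = 0.0244). It had 20 counts in NASH and 88 in WT. Slc47a1 (MATE1), which exports cations into bile, was at 116 ± 60.5 against 182 ± 12.9 CPM and did not pass (adjusted p = 0.228).

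Among 23 tested transcription regulators of liver, 1 was called higher and 6 lower, with a median log2 fold change of −0.38. Pparg, the adipogenic nuclear receptor, rose from 11.99 ± 2.87 to 29.0 ± 9.32 CPM (1.28 ± 0.27, adjusted p = 0.0147). Foxa3, a hepatic forkhead factor, fell from 31.8 ± 5.49 to 18.1 ± 0.84 CPM (−0.82 ± 0.13, adjusted p = 0.00735), and Nr0b2 (SHP), the bile acid responsive repressor, fell by 1.65 on the log2 scale (adjusted p = 0.0144). Bcl6, Nr1i3 and Nr5a2 were also called lower. Ppara, the receptor that drives fatty acid oxidation genes, fell from 226 ± 19.2 to 119 ± 43.7 CPM (−0.93 ± 0.26, adjusted p = 0.0350). Ppara was named after its values were seen. Slc22a5 is induced under this receptor in mouse liver, but a link between the falls of both genes was not tested.

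Several carriers of mouse liver differ between males and females, and so lists of sex-biased liver genes were read beside the members. Of 19 male-biased genes 7 were lower and none higher, with a median of −1.58, led by the steroid dehydrogenase Hsd3b5 (−5.77 ± 0.42, adjusted p = 0.000827) and by Slco1a1. Of 13 female-biased genes tested 3 were higher and 2 lower, with a median of 0.60. Cyp17a1 and Atp6v0d2 were higher (2.35 ± 0.52, adjusted p = 0.0170, and 2.32 ± 0.49, adjusted p = 0.0152). Cyp4a10 and Acot3 were lower (−1.52 ± 0.37, adjusted p = 0.0223, and −1.46 ± 0.41, adjusted p = 0.0371).

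Some markers of liver cell types moved beside the members. The summed CPM of 7 hepatocyte markers was 48993 to 102975 in NASH and 140751 to 174656 in WT, lowest in NASH replicate 3. Alb made up most of each sum, and 1 of the 7, Serpina1c, was called lower. Alb, Apoa1, Ttr and Serpina1c lay lower in every NASH library. The groups overlapped for Fgb, Ahsg and Apob, with log2 fold changes of −0.03, 0.12 and −0.29. Of 7 macrophage markers 3 were called higher, with sums of 245 to 1009 CPM in NASH and 71.3 to 228 in WT, Trem2 and Gpnmb leading. Gpnmb alone averaged 259 CPM in NASH and 2.21 CPM in WT. Without passing, Clec4f and Vsig4 had positive estimates, and Marco (−1.43) and Csf1r (−0.14) had negative ones. Of 7 stellate cell and fibroblast markers 5 were higher, led by Col3a1 and Col1a1, with sums of 565 to 1367 CPM against 332 to 465. Of 5 cholangiocyte markers 2 were higher, Spp1 and Krt7, with sums of 87.2 to 730 against 55.3 to 89.5. Spp1 made up most of each of these sums. The groups overlapped for Krt19, Epcam and Sox9, with log2 fold changes of 1.85, 0.87 and 0.10. Endothelial, T and B cell and neutrophil markers had no calls, with sums of 161 to 317, 4.03 to 7.68 and 2.01 to 57.1 CPM in NASH against 127 to 243, 3.32 to 6.03 and 0.891 to 3.35 in WT. The kidney tubule marker Slc34a1 was near 0, with 0.00831 CPM in NASH and 0 in WT, while Lrp2 was lower and Aqp1 did not pass. In whole liver, fewer hepatocytes and less carrier RNA per hepatocyte cannot be told apart, and the part of these shifts in the falls of Slc22a5, Slc22a28 and Slc22a30 was not tested.

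Genes starting within 500 kb of a member numbered 104 apart from the members, of which 86 were tested, 13 called higher and 3 lower. These shares are near the 12.9% called higher and 6.00% called lower over all genes tested, so the counts set the neighbourhoods apart in neither direction. The Slc22a18 window, in the imprinted region, held 5 genes called higher of 14, including Tnfrsf23 (2.09 ± 0.36, adjusted p = 0.00912) and Tnfrsf26 (1.80 ± 0.47, adjusted p = 0.0290). The Slc22a7 window held 5 called higher and 2 lower of 31, and the Slc22a3 window none of 7. Near Slc22a5, Pdlim4 was higher and Leap2, an antimicrobial peptide and ghrelin receptor antagonist gene, was lower (−0.74 ± 0.20, adjusted p = 0.0323). In the chromosome 19 windows the only calls were Slc22a27 and Slc22a30 themselves. These neighbours were named after their values were seen.

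Profiles over the 8 libraries were compared by the root mean square difference of standardised log2 CPM, where 0 means the same shape. Among members, Slc22a28 and Slc22a30 were closest at 0.113, followed by Slc22a28 and Slc22a5 at 0.143 and Slc22a30 and Slc22a5 at 0.175. Slc22a5 lies on another chromosome than that pair. Its nearest genes outside the members were Lipc at 0.0644, which encodes hepatic lipase, and Txndc15 at 0.118. Slc22a28 was nearest to Cyp4v3 at 0.0835 and Npr2 at 0.101, and Slc22a30 to Cyp2d26 at 0.0880 and Adh6-ps1 at 0.106. Slc22a27 was nearest to Sh3bgrl at 0.180 and Mad2l1 at 0.189, and the nearest genes of Slc22a7 and Slc22a18 were looser still. Slc22a3 was nearest to Oat and Me1, Slc22a7 to Kng1 and C1ra, Slc22a18 to Apol9b and Rnf181, and Slc22a23 to the proteasome subunit genes Psmd11 and Psmd4. All points share the same 8 libraries, and the group difference itself is part of each profile. Slc22a28 and Slc22a30 also share sequence, and the part of shared reads in their likeness was not tested.

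**Figure D4:**
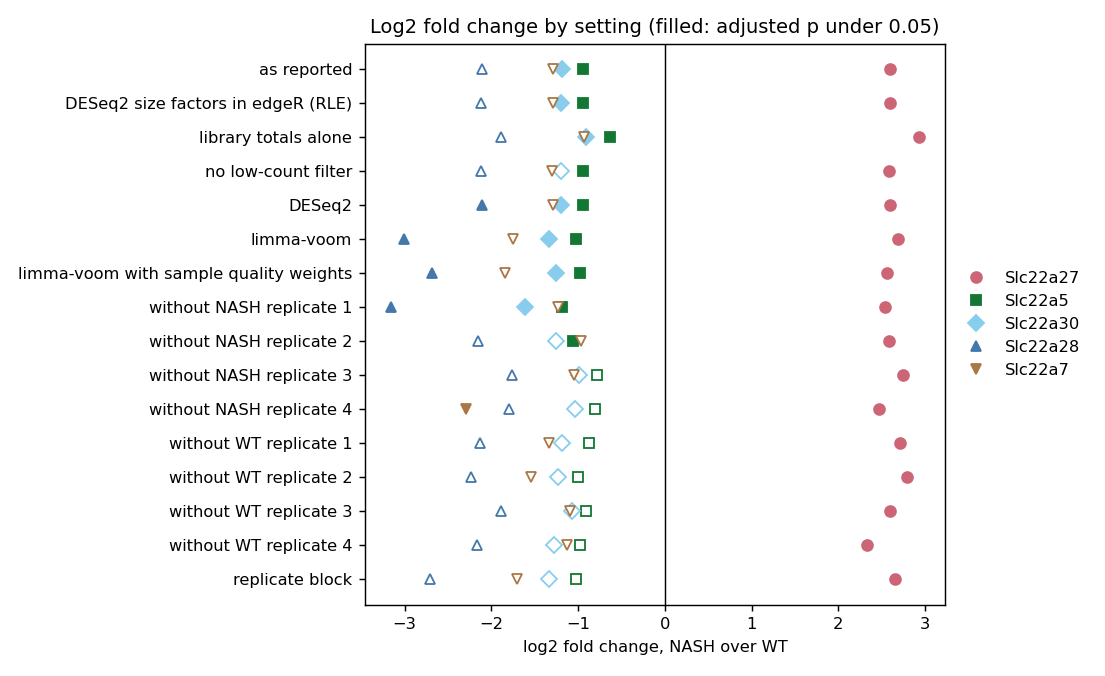
Log2 fold change of NASH over WT (x axis) for 5 members under each processing setting (y axis), filled where the adjusted p was under 0.05. Slc22a27 is filled throughout at 2.33 and above, while Slc22a5, Slc22a30, Slc22a28 and Slc22a7 stay negative and are filled in some settings.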

How the data were processed

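Frozen mouse liver was extracted with Trizol and sequenced with a stranded total RNA kit in 8 libraries, per the labels' protocols. HISAT2, HTSeq 0.9.1 and the builds mm9 and mm10 are named in the submitters' processing notes without roles, while annotation, read length and strand setting are not named there. Per the file headers, the deposited table lists raw counts of 16122 protein-coding genes and calls the WT group Control. A further 8 columns of the authors' normalized values were not used.

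Counts were scaled by TMM, filtered with filterByExpr (minimum count 10) and tested for NASH against WT in edgeR 4.0.16 by its quasi-likelihood F-test (R 4.3.3, robust, no covariates, two-sided). Benjamini-Hochberg adjustment ran over 12351 genes with a threshold of 0.05, and adjusted p-values are from this test unless another tool is named. The SE is the log2 fold change divided by the square root of F. The biological coefficient of variation was 29.2%. Errors of levels are SD over 4 libraries. The script was tested on simulated data.

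Alternatives were DESeq2 size factors in edgeR, library totals, no filter, DESeq2 1.42.0, limma-voom (limma 3.58.1) with and without sample quality weights, each library left out, and the replicate number as a block. Gene positions, exon lengths and coding sequences came from GENCODE for GRCm38, matched by Ensembl ID, and promoters from RefSeq, matched by symbol for 7 of the 8 members. Identity was taken over aligned bases.

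The members, the comparison lists (SLCO and MATE carriers, carnitine genes, liver regulators, male-biased and female-biased genes) and the cell type markers were chosen with earlier results of these data known. Genes named are the members, the other Slc22a genes that passed the filter (1 is not reported here), the 2 called genes with the smallest p in each direction of a list, and the 2 genes nearest to each member in profile. Others were named after their values were seen.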

Additional observations from a re-analysis of the deposited data

How the results depend on the processing

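Of 120 alternative values of the members' log2 fold changes, 113 kept their direction, and the exceptions were in Slc22a18 and Slc22a23. Slc22a18 turned positive with library totals (0.304) and with sample quality weights (0.109), and ranged from −0.18 to 0.18 with a library left out, and Slc22a23 turned positive with library totals (0.204). Slc22a28 passed with DESeq2 (−2.11), limma-voom (−3.01) and sample weights (−2.68). Slc22a30 lost its call without the count filter (−1.20).

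With a library left out, log2 fold changes ranged from 2.33 to 2.80 for Slc22a27, −3.15 to −1.76 for Slc22a28, −1.61 to −0.98 for Slc22a30, −1.19 to −0.79 for Slc22a5, −2.29 to −0.96 for Slc22a7, −0.86 to −0.25 for Slc22a3 and −0.22 to −0.10 for Slc22a23. They ranged from −0.20 to 0.39 for Slc22a15, −0.14 to 0.44 for Slc22a21, −0.22 to 0.60 for Slc22a26 and 1.42 to 2.002 for Slc22a29. Members lower numbered 0 to 3, with 1 higher in each fit. Slc22a15 (−0.0623, limma-voom) and Slc22a26 (−0.0184, sample weights) turned negative.

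The same-numbered libraries did not deviate together (correlations of 0.034, −0.140, −0.144 and −0.016). No pairing by number was seen, but 4 libraries per group are too few to decide it. With the replicate block, 618 genes passed, 467 higher and 151 lower, and no member was lower (0), with Slc22a5 at −1.02 and Slc22a30 at −1.33. In that fit the counts lower were 1 for SLCO and MATE carriers, 3 for regulators, 2 for male-biased and 1 for female-biased genes, with 0 female-biased genes higher.

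Over all genes, calls numbered 3527 (1361 lower) with DESeq2, 3071 higher and 220 lower with library totals, 93.3% of calls higher against 68.3%, and 1222 lower with sample weights. Leaving out a library gave 821 to 3742 calls, 636 to 2238 higher and 185 to 1504 lower. Members lower numbered 1 without the filter. One other Slc22a gene was higher with library totals, DESeq2 and sample weights (1 each), and 0 to 1 with a library left out. Carnitine genes lower numbered 2 with DESeq2 and with sample weights, with 1 higher in the latter, and 0 to 3 lower and 0 to 1 higher with a library left out. Regulators higher numbered 3 with library totals, and 3 to 9 lower with a library left out. Female-biased genes higher numbered 5 with library totals, lower 1 without the filter and with limma-voom, and 0 to 4 higher and 0 to 2 lower with a library left out. Male-biased genes lower ranged from 2 to 12 and SLCO and MATE carriers lower from 1 to 3. The causes were not tested.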
